A study of Mus musculus with 2 samples.

Results

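Gimap genes encode GTPases of immunity-associated proteins, a family found mainly in lymphocytes. The genes examined were chosen by name: every array spot, control spots aside, whose gene name in the scanner files was Gimap1 or one of Gimap3 to Gimap9. Of these 8 genes, 7 had a probe, with 10 probes in all out of 41174 probes and 27597 gene names on the array. No spot used here carried the name Gimap8, so Gimap8 was not analysed here. Each probe was printed once per array, and none of the 10 spots was marked as an outlier on either array.

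The study compared naive CD8+ T cells, sorted as CD44 low and CD25 low, from Bcl11bF/F/dLck-iCre mice (knockout) with cells sorted alike from wild-type mice, both on the C57BL/6 background. Bcl11b encodes a zinc-finger protein that binds DNA and sets T cell identity. In the knockout mice its alleles are floxed and are cut by an iCre recombinase under the distal Lck promoter, which acts late in T cell development, so earlier stages keep the gene. On each of 2 Agilent arrays, knockout RNA carried Cy5 and wild-type RNA carried Cy3, and the labels call the arrays biological replicates; the age of the mice and the number that gave each sample are not stated.

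Gimap proteins bind and cleave GTP through a shared domain, and several sit on intracellular membranes by a hydrophobic tail. In mice, loss of Gimap1, Gimap5 or Gimap6 depletes naive T cells, and the family is known above all for keeping resting lymphocytes alive. Gimap4, in contrast, speeds up the death of T cells once it has been triggered. The genes form 1 cluster on mouse chromosome 6, which RefSeq places at chr6:48647186-48770851 on GRCm38.p6 (123.7 kb), with no other protein-coding gene between the 8 members.

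The arrays differed in their spread. Log2 ratios of knockout over wild type had a standard deviation over genes of 1.01 on array 1 and 0.41 on array 2, and they correlated weakly between the arrays (Pearson r = 0.29 across 9273 genes, which are not independent replicates). Since no dyes were swapped, dye bias and genotype cannot be told apart for any gene. Bcl11b, the deleted gene, had ratios of -1.45 and -1.73 on arrays 1 and 2 by its brighter probe and -0.35 and -2.32 by its second probe, and its adjusted p was 0.0750 (limma). The 8 markers of CD8 T cells were well above background in every sample. All samples are bulk RNA, in which fewer cells of a type and less RNA per cell cannot be told apart.

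None of the 7 measured Gimap genes passed the test for a difference between knockout and wild-type cells. The test was limma's moderated test of the mean log2 ratio over both arrays, adjusted by Benjamini-Hochberg over all 9273 measured genes at 0.05, and 1.49% of those genes passed, 1.24% as higher and 0.248% as lower in knockout cells. None of the 7 had an unadjusted p under 0.05, against 904 of all measured genes. The lowest adjusted p of the family was 0.680, for Gimap7. All genes shared a standard error of 0.50 in this fit, which estimated no variation in spread between genes, and a mean ratio had to reach 1.68 in size to pass. The Gimap genes had mean ratios from 0.04 (Gimap5) to 0.81 (Gimap7), against a median of 0.04 over all measured genes. Gimap7 was well above background in the knockout channel alone, and Gimap5 had a mean of -0.40 by its second probe. A mean ratio under 1.68 in size could not pass with these arrays, also where it lies outside the intervals given below.

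**Figure D1:**
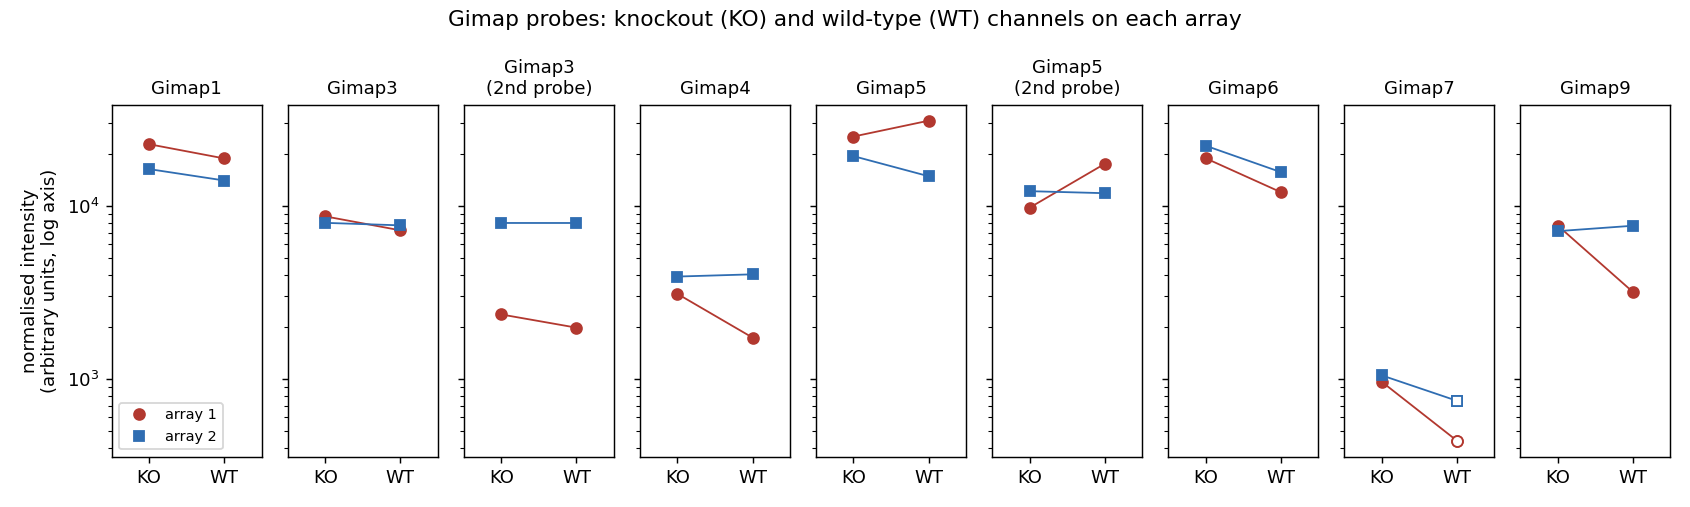
Normalised intensity (arbitrary units, log axis) of the 9 Gimap probes that passed the filter on dim probes, in the knockout (KO) and wild-type (WT) channels of array 1 (circles) and array 2 (squares), with a line joining the channels of an array. Open symbols mark a channel not well above background. The lines of Gimap1 and Gimap6 run alike on both arrays, whereas those of Gimap4, Gimap5 and Gimap9 slope differently, and both wild-type symbols of Gimap7 are open.

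Gimap1, Gimap5 and Gimap6, the members whose loss in mice removes naive T cells, differed in how alike the arrays were. The 250 bases before the annotated start of each are shown first, from RefSeq on GRCm38.p6 and on the gene's own strand, because these 3 genes are the ones with that loss of cells. Capitals mark GGAAG, the core bound by ETS transcription factors, or its reverse complement CTTCC. Gimap1 (chr6:48738797-48739046, plus strand), Gimap5 (chr6:48745947-48746196, plus strand) and Gimap6 (chr6:48708245-48708494, minus strand) read as follows.
Gimap1: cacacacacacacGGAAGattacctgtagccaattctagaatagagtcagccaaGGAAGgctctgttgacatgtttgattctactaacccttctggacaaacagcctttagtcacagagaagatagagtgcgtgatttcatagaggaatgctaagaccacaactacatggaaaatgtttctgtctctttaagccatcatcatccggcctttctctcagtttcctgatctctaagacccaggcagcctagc
Gimap5: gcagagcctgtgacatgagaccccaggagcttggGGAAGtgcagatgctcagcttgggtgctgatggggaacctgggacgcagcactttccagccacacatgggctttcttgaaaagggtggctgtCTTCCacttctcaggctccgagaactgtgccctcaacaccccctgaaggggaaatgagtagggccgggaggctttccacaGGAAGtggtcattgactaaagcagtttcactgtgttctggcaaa
Gimap6: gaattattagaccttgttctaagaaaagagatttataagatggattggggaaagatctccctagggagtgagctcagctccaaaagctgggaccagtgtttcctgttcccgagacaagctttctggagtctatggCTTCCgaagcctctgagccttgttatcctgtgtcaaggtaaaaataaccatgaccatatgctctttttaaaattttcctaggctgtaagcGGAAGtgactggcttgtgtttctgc

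The letters GGAAG were present, on one strand or the other, before a start of all 8 Gimap genes, against 64.1% of 32851 promoter windows of this length; Gimap8 has more than 1 annotated start and holds them before 1. TGTGGT, the core bound by Runx factors, or its reverse complement was found before Gimap1, Gimap4 and Gimap7, 3 of the 8 genes, against 14% of windows. TGACCA, a motif known for BCL11A, the relative of Bcl11b, in human cells, or its reverse complement was found before Gimap5 and Gimap6, 2 of the 8, against 11.4% of windows. Matches of different motifs did not overlap in these windows, and in Gimap5 a reverse match of TGACCA directly followed a GGAAG. A match of letters is not evidence of binding, and no binding was measured.

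Gimap1 had normalised intensities of 22639 and 16266 in knockout cells on arrays 1 and 2, against 18738 and 13979 in wild-type cells. The knockout channel was the brighter one by a small and nearly equal margin on both arrays, although both normalised channels were lower on array 2. Before normalisation the wild-type signal was instead higher on array 2, at 8279 on array 1 and 11359 on array 2. The log2 ratios of Gimap1 were 0.27 and 0.22, with a mean of 0.25 ± 0.04 (SD, n = 2). This is a 1.19-fold difference with a 95% interval of the fit from 0.604 to 2.33, and it did not pass (adjusted p = 0.949, limma). The probe lies at chr6:48672996-48673055, plus strand, in the array design's build, mm8. Of the 7 genes, Gimap1 had the smallest spread between the arrays.

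Gimap6, a cytosolic member that binds the autophagy protein GABARAPL2, had normalised intensities of 18782 and 22194 in knockout cells, against 11976 and 15632 in wild-type cells. On each array the knockout value lay above the wild-type value, as it did for 30.9% of all measured genes. The log2 ratios were 0.65 and 0.51, with a mean of 0.58 ± 0.10 (SD, n = 2), or 1.49-fold (95% interval 0.760 to 2.93; adjusted p = 0.846, limma). On array 2 its ratio exceeded that of 92.9% of measured genes, and on array 1 that of 69.6%. The probe lies at chr6:48631385-48631444, minus strand, on mm8.

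Gimap5, a membrane-bound member of lysosomes, had normalised intensities of 25074 and 19325 in knockout cells, against 30950 and 14796 in wild-type cells. The wild-type values enclosed the knockout values, and the arrays pointed in opposite directions, with log2 ratios of -0.30 and 0.39. The mean was 0.04 ± 0.49 (SD, n = 2), or 1.03-fold (95% interval 0.524 to 2.02; adjusted p = 0.993, limma). This probe lies at chr6:48683088-48683147 on mm8, plus strand. A second probe, designed from a cDNA clone and placed 6111 bases upstream at chr6:48676977-48677036, gave -0.84 and 0.04, and its mean of -0.40 has the opposite sign. No genome of the build was used here to place either probe against exons.

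Gimap3, the closest relative of Gimap5, showed little difference by either of its probes. By the brighter probe (chr6:48694621-48694680, minus strand, mm8) its normalised intensities were 8680 and 7964 in knockout cells, against 7210 and 7702 in wild-type cells. On each array the knockout value lay above the wild-type value, by a narrow margin on array 2. The log2 ratios were 0.27 and 0.05, with a mean of 0.16 ± 0.16 (SD, n = 2), or 1.12-fold (95% interval 0.568 to 2.19; adjusted p = 0.967, limma). The second probe shares 50 of its 60 bases with the first and gave 0.25 and 0.00035. Gimap3 and Gimap5 are close in sequence, and whether a probe of one also detects the other was not tested.

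Gimap4, the member that hastens the death of T cells, had normalised intensities of 3099 and 3901 in knockout cells, against 1733 and 4018 in wild-type cells. The groups overlapped: the array 1 wild-type value was the lowest of the 4 and the array 2 wild-type value the highest. The log2 ratios were 0.84 and -0.04, with a mean of 0.40 ± 0.62 (SD, n = 2), or 1.32-fold (95% interval 0.671 to 2.59; adjusted p = 0.916, limma). The probe lies at chr6:48620453-48620512, plus strand, on mm8.

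Gimap9 had the widest spread between the arrays. Its normalised intensities were 7674 and 7133 in knockout cells, against 3177 and 7663 in wild-type cells. The knockout values were close together. On array 1 the knockout value was well above the wild-type value, and on array 2 it was slightly below it. The log2 ratios were 1.27 and -0.10, with a mean of 0.58 ± 0.97 (SD, n = 2), or 1.5-fold (95% interval 0.763 to 2.95; adjusted p = 0.841, limma). The probe lies at chr6:48607426-48607485, plus strand, on mm8.

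Gimap7, which in human cells cleaves GTP as a pair of like molecules, was the dimmest member. Its brighter probe (chr6:48653858-48653917, plus strand, mm8) was well above background in knockout cells on both arrays and in wild-type cells on neither, so it entered the fit through the knockout channel alone, and the direction of its ratio was fixed by that filter. Before normalisation its signals were 1404 and 2601 in knockout cells, against 962 and 1257 in wild-type cells, where negative control spots had medians of 985 and 1865 in the knockout channel and 1087 and 1120 in the wild-type channel. The wild-type signal on array 1 was thus below the median of the negative controls. The log2 ratios of 1.13 and 0.49 gave a mean of 0.81 ± 0.45 (SD, n = 2; adjusted p = 0.680, limma). With the wild-type channel bounded by the lowest signal well above background, Gimap7 was at least 1.25-fold higher in knockout cells. Given the filter this bound is a description and does not support a difference, and it is open to dye bias. The second probe of Gimap7, 5432 bases upstream at chr6:48648426-48648485, was not well above background in any sample and was left out of the fit. Its log2 ratios, taken between such dim signals, were -0.15 and -0.17.

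Taking the 7 genes side by side, 4 had a ratio above 0 on both arrays (Gimap1, Gimap3, Gimap6 and Gimap7), none had a ratio below 0 on both, and 3 had opposite signs (Gimap4, Gimap5 and Gimap9). Among all measured genes, 30.9% were above 0 on both arrays, 30.8% below 0 on both, and 38.2% had opposite signs. The median ratio of the Gimap genes was 0.65 on array 1 and 0.22 on array 2, against 0.05 and -0.01 for all measured genes. On array 2 all 7 ratios lay between -0.10 and 0.51, whereas on array 1 they ran from -0.30 to 1.27. Of the 7, 5 were under 2-fold on both arrays, as were 71.6% of all measured genes. Gimap7 could count only on the higher side; the other 6 genes had medians of 0.46 and 0.13 on arrays 1 and 2. These counts describe the family and were given no test of their own.

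**Figure D2:**
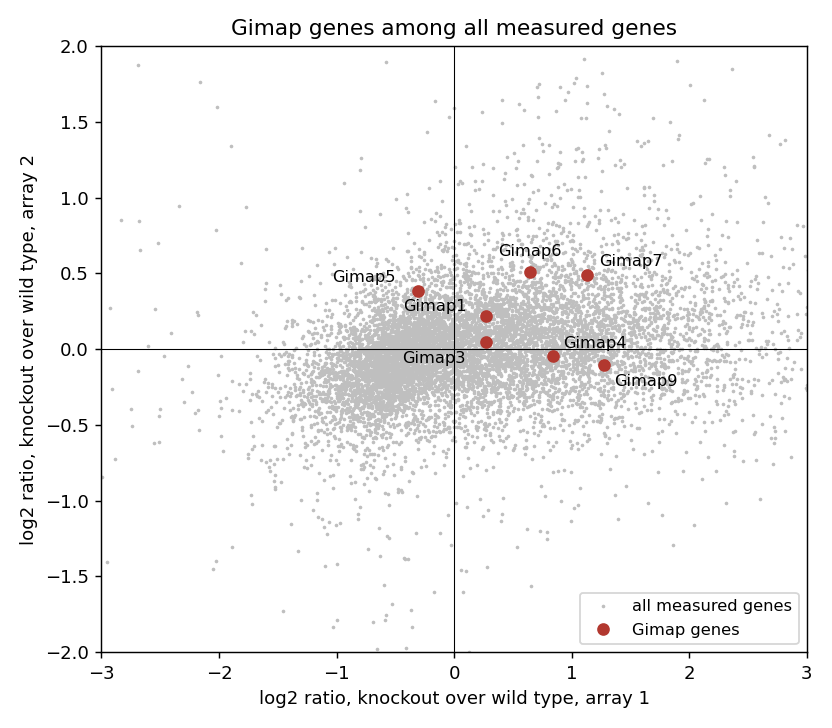
Log2 ratio of knockout over wild type on array 1 (horizontal) and array 2 (vertical) for the 7 measured Gimap genes (red) and all 9273 measured genes (grey), of which 145 lie outside the drawn range. The Gimap genes sit within the cloud of other genes, spread between -0.30 and 1.27 along array 1 and between -0.10 and 0.51 along array 2.

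After normalisation, the 3 genes with opposite signs differed between the arrays more in the wild-type than in the knockout channel. For Gimap5 this depended on the normalisation. Before it, the Gimap5 signals on arrays 1 and 2 were 42236 and 38014 in knockout cells, against 13329 and 11841 in wild-type cells. Those channels moved alike. In fold terms, the unnormalised signals of Gimap4 and Gimap9 still differed more in the wild-type channel. For Gimap9, the normalised log2 intensity in wild-type cells was 1.27 higher on array 2 than on array 1, while that of knockout cells differed by -0.11. For Gimap4 the corresponding differences were 0.33 in knockout cells and 1.21 in wild-type cells, and for Gimap5 they were -0.38 in knockout cells and -1.06 in wild-type cells. In 5 of the 7 Gimap genes the normalised wild-type channel differed more between the arrays than the knockout channel did, which also held for 65.5% of all measured genes.

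Genes on either side of the cluster were examined next. All 8 listed neighbours had probes, but 3 were measured, Lrrc61 on one side and Tmem176b and Tmem176a on the other, and none of the 3 passed. Tmem176b, a membrane protein, had log2 ratios of 0.31 and 0.55, Lrrc61 of -0.23 and -0.11, and Tmem176a of -0.47 and 0.10. Along the cluster, Gimap1, Gimap5 and Gimap3, adjacent at the end next to Tmem176b, had the 3 lowest means of the family (0.25, 0.04 and 0.16). This order did not hold on array 2 alone, where Gimap9, Gimap4 and Gimap3 were lowest (-0.10, -0.04 and 0.05). With centring on the array median in place of loess, Gimap7 had the lowest mean (0.71). Position in the cluster was not tested.

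**Figure D3:**
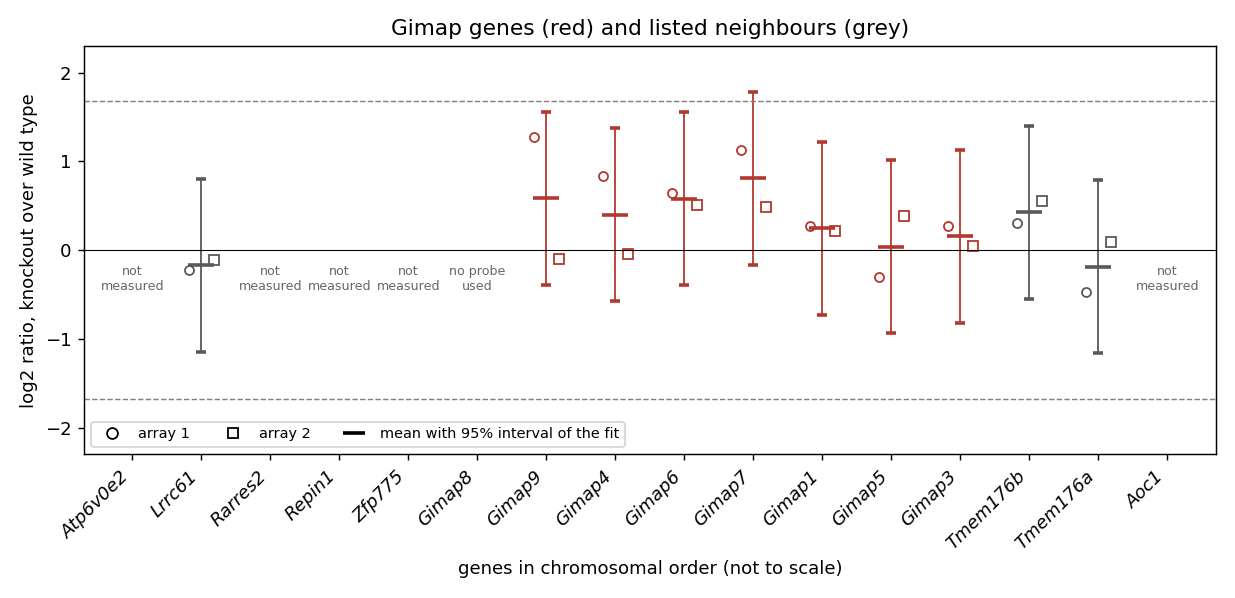
Log2 ratio of knockout over wild type for the Gimap genes (red) and their listed neighbours (grey) in chromosomal order, not to scale. Open circles are array 1, open squares array 2, and bars the mean with the 95% interval of the fit; dashed lines mark 1.68 in either direction, the smallest mean that passed. Every Gimap mean lies between 0.04 and 0.81 and inside the dashed lines.

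Gimap proteins act beside the interleukin-7 receptor and the Bcl2 family in naive T cell survival. Of 18 listed genes of these groups 17 were measured, none rose, none fell and 17 did not pass, where 1.49% of all measured genes passed. The median ratios of the listed genes were 0.54 on array 1 and 0.23 on array 2. The interleukin-7 receptor gene Il7r was at 2.17 and 0.21, with 2.45 and 0.21 by a second probe. Among members that promote death, Bid was at 2.08 and 0.53, Bcl2l11 (Bim) at 1.38 and 0.43, with -0.18 and 0.34 by a second probe, and Bbc3 (Puma) at -1.60 and -0.75.

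Of 14 genes of the naive state 13 were measured, of which 1 rose and none fell, against 1.24% and 0.248% of all measured genes. The one that rose was Btg1, an antiproliferative factor, at 2.63 and 0.84 (adjusted p = 0.0370, limma), although a second probe gave 0.49 and 0.58. No gene of these lists, Btg1 included, passed without background subtraction, with the scanner software's log ratio, without the filter on dim probes, with the mean of all probes or with the arrays scaled to the same spread. The median of the list was 1.25 on array 1 and -0.07 on array 2, so on array 1 these genes stood above the Gimap genes and on array 2 below them. The autophagy list, included because of Gimap6, had 11 of 13 genes measured and none past the threshold. Gabarapl2, the partner of Gimap6 in autophagy, was at 1.01 and 0.72, its relative Gabarap at 0.97 and 0.57, Map1lc3b at -1.40 and -0.03, with -0.17 and 0.37 by a second probe, and Atg16l1 at -0.40 and -0.09.

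Some markers of other cell types passed as higher in knockout cells. Of all measured genes, 1.24% passed as higher and 0.248% as lower. With the scanner software's log ratio, without the filter on dim probes or with the arrays scaled to the same spread, none of these markers passed. No gene at all passed in those alternatives. Of 6 measured markers of natural killer (NK) cells 3 rose (Fcer1g, Tyrobp and Klrb1c) and 3 did not pass (Ncr1, Klra8 and Eomes). In wild-type cells Fcer1g was at background on both arrays and so was measured through the knockout channel alone. The summed normalised intensity of the 6 was 21751 and 89210 in knockout cells on arrays 1 and 2, against 7121 and 9251 in wild-type cells, where 2 of the 6 were at background on both arrays. Of 7 measured markers of macrophages and dendritic cells 5 rose, with sums of 20446 and 21471 in knockout cells, against 3119 and 10355 in wild-type cells, while Itgam and Cd68 were not well above background in any sample. In wild-type cells 5 of these 7 were not well above background on either array, so they were measured through the knockout channel alone. Csf1r, Adgre1 and C1qc, counted as risen, were among them, and the direction of their ratios was fixed by that filter. Lyz2, one of the 5 that rose, was at 4.03 and -0.38, and on array 2 its normalised intensity was 5344 in knockout cells, against 6963 in wild-type cells, most of the wild-type sum there. None of 4 measured B cell markers passed, with sums of 8084 and 6614 in knockout cells, against 7904 and 6548 in wild-type cells, and the 1 measured red cell marker did not pass either. The CD8 T cell markers, none of which passed, had median ratios of 0.72 and 0.39, and their sums were 387552 and 335593 in knockout cells, against 263623 and 254877 in wild-type cells. The part of these cell markers in the Gimap values was not tested.

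No Gimap gene passed under any alternative processing with a test, but the size of the ratios depended on the normalisation within arrays. With the scanner software's log ratio, without the filter on dim probes or with the arrays scaled to the same spread, no measured gene passed. The absence of Gimap genes there is therefore not particular to the family. When the loess curve was replaced by centring on the array median, the median of all genes moved up by 0.65 and the Gimap median mean ratio was 1.11, against 0.40 with loess. Relative to the median of all genes the Gimap median then stood at 0.43, against 0.36 with loess. Gimap5 turned negative in 2 alternatives, at -0.014 without background subtraction and -0.18 with the mean of its probes. Gimap7, with its dim wild-type channel, had a mean of 2.20 in the scanner software's own log ratio and 0.42 without background subtraction.

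**Figure D4:**
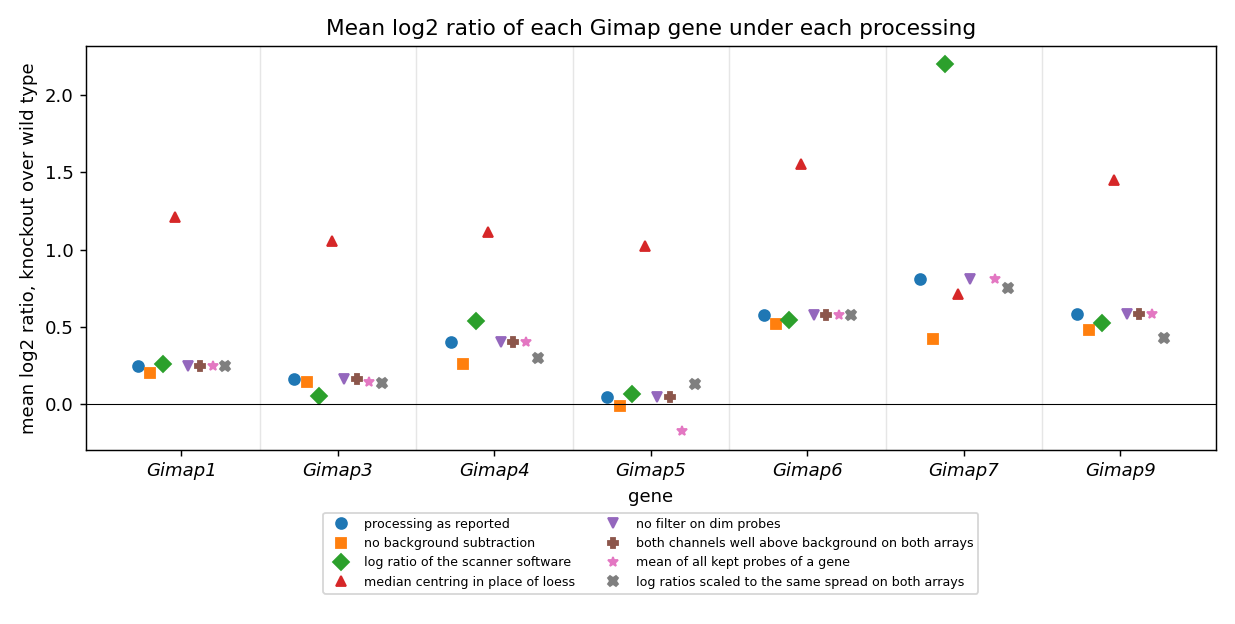
Mean log2 ratio of knockout over wild type of each Gimap gene under the processing reported here and 7 alternatives, 1 symbol each. Median centring lifts 6 of the 7 genes to between 1.02 and 1.55, Gimap7 ranges from 0.42 to 2.20, and Gimap5 lies on either side of 0.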

How the data were processed

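The submitters' processing notes name Agilent Feature Extraction 9.5.3.1 as the scan software. The deposited intensity values are, per the file headers, mean spot signals and median local backgrounds of each channel, without normalisation. The deposited log10 ratios of red (Cy5, knockout) over green (Cy3, wild type) come, per the file headers, from that software, background-subtracted and dye-normalised; the deposited value table repeats them to within 0.0050 at every spot.

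In R 4.3.3, limma 3.58.1 corrected background by normexp (offset 50) and log2 ratios were normalised by loess within arrays, with control and outlier spots at weight 0 and then left out. Probes had to be well above background on both arrays in at least 1 and the same channel, and the brightest such probe stood for its gene (9273 genes). Genes were named by RefSeq accession, then symbol. Mean ratios were tested with lmFit and eBayes. Normalised intensities of a channel were taken after loess, then Aquantile. The fit was tested on simulated data with known changes and did not recover all of them, so a gene that did not pass may still differ. The simulated arrays had equal noise, whereas the real arrays differed in spread. Because all genes shared a standard error, a gene could also pass with arrays of opposite sign, as Lyz2 did at 4.03 and -0.38.

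The members, lists and tests were chosen with earlier results of these data known. All members are named; from each list up to 4 genes with the largest mean ratio among those passing or, failing that, of 1 sign on both arrays. Tmem176a, Itgam, Cd68 and the other cell markers lie outside that rule and complete small counts. Precision is limited by the number of arrays, 2.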

Additional observations from a re-analysis of the deposited data

How the results depend on the processing

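No Gimap gene passed in any alternative with a test, nor when each kept probe was tested on its own, an alternative chosen after seeing the data. Between 0 and 2 Gimap genes had an unadjusted p under 0.05 (limma). With median centring there were 2 of 7, against 1687 of all 9273 genes. Without a filter on dim probes there were 2 of 7, against 2478 of 27595. The scanner software's log ratio and the arrays scaled to the same spread gave 1 each, against 574 and 901 of 9273. Over all genes, 138 passed as reported (115 higher, 23 lower), 35 without background subtraction (27 and 8), 64 with median centring (63 and 1), 39 with both channels well above background on both arrays (25 and 14; Gimap7 is not measured there) and 31 probes when tested singly. None passed with the scanner software's log ratio (574 at an unadjusted p under 0.05, limma), without a filter on dim probes (2478) or with the arrays scaled to the same spread (901). The median Gimap ratio was 1.11 with median centring. Gimap5 reversed to -0.014 without background subtraction and to -0.18 with the mean of its probes; the cause of these shifts was not tested. From single arrays, without a test, the median Gimap ratio was 0.65 on array 1 and 0.22 on array 2. Above 0 were 6 of the 7 genes on array 1 and 5 on array 2, against 4813 and 4469 of all 9273 measured genes. Gimap7 is in both counts, and the direction of its ratio was fixed by the filter. No paired analysis was possible because the arrays form 1 group, each already holding a knockout and a wild-type sample. Ratios of Gimap7 are limited by its signal over background.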

Other observations

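The 2 probes of Gimap3 overlap by 50 of 60 bases, yet behaved differently between the arrays. The dimmer probe had unnormalised signals of 3793 and 15907 in knockout cells on arrays 1 and 2, against 1532 and 7007 in wild-type cells. The brighter probe had 14388 and 15937 in knockout cells, against 3587 and 6818 in wild-type cells. On array 2 the probes gave nearly the same signals in both channels, and on array 1 the brighter probe gave 3.79 times the signal of the other in knockout cells and 2.34 times in wild-type cells. After loess the ratios of the probes nevertheless differed by 0.01 on array 1 and 0.05 on array 2.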
